A study of Homo sapiens with 45 samples.

Results

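The genes described are 8 that write, maintain or remove DNA methylation, found by symbol among the 28278 gene names of the main RNA count table and in both separate Scramble tables. They are the DNA methyltransferases DNMT1, DNMT3A and DNMT3B, the maintenance cofactors UHRF1 and HELLS, and the dioxygenases TET1, TET2 and TET3. All 8 passed the filter on low counts. The cells were HCT116, an established human colon cancer line, collected after 72 hours with siRNA at 25 nM. HNRNPK siRNA was compared with a nontargeting siRNA named siNTC5, in 4 RNA libraries each. Replicates 1 and 2 of each group were prepared with the Illumina TruSeq stranded mRNA kit and replicates 3 and 4 with the Illumina Stranded mRNA Ligation kit. The Scramble group, 2 further nontargeting control libraries, came from RNA purified with the Qiagen RNeasy kit instead of the Maxwell kit, were prepared with TruSeq, and were deposited as separate tables. ChIP domain lists for lamin B1, H3K9me3 and H3K27me3 in control and HNRNPK siRNA cells, and for H3K9me2 in control cells, were used for the position of each gene.

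DNA methylation in mammals is laid down on the cytosine of CpG pairs. DNMT3A and DNMT3B place it on unmethylated DNA, and DNMT1 copies it to the new strand at replication. UHRF1 binds hemimethylated CpG and brings DNMT1 to it, and HELLS is a chromatin remodeler that opens packed chromatin for methylation. The TET enzymes oxidise methylcytosine, which starts its removal.

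HNRNPK itself was checked first, since its siRNA defines the groups. It stood at 22.2% of the siNTC5 level (log2 fold change -2.17, standard error 0.06, edgeR adjusted p 7.29e-15), and no HNRNPK siRNA library overlapped a control. Total counts ranged from 12107280 to 23633851 in the 8 libraries and were 59209169 and 55007171 in Scramble. The member with the fewest reads, TET1, had 111 to 263 counts in the 8 libraries, and the one with most, DNMT1, had 3425 to 7361. Epithelial markers summed to 3170 to 3685 CPM (a gene's share of all counts in its library, on the usual CPM scale and here without TMM scaling) in controls and 4833 to 5766 in the knockdown, with 5 of the 8 higher and 2 lower. KRT8 and KRT18 carried the sum upward, while KRT19 fell from 806 to 333 CPM and CLDN4 from 146 to 108 CPM (means after TMM scaling). Leukocyte markers summed to 1.85 to 2.40 CPM in controls and 7.33 to 9.25 in the knockdown, where CD3E was at 0 and ITGAM gave most of the sum. Endothelial markers summed to 0.891 to 1.49 and 2.23 to 3.87 CPM. Fibroblast markers summed to 45.2 to 74.6 and 75.2 to 120.01 CPM, nearly all of it COL1A1, and LUM was at 0. The part of these in the results below was not tested. The labels do not say whether replicates came from separate cultures, so p-values measure the spread between these libraries, which may be technical.

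TET3 and DNMT3A were also higher in the knockdown but rose less than TET2, and their sequences are left out. The promoters of 4 members are shown because HELLS, UHRF1 and DNMT3B were lower in the knockdown and TET2 rose most. Each is the 250 bases before a start site in RefSeq (GRCh38.p14), written 5′ to 3′ on the strand of the gene. Capitals mark matches to CCAAT and to the E2F motif, searched on both strands as TTTCCCGC, TTTCGCGC, TTTGCCGC and TTTGGCGC. None of these matches overlapped another.
HELLS, chr10:94545538-94545787, plus strand: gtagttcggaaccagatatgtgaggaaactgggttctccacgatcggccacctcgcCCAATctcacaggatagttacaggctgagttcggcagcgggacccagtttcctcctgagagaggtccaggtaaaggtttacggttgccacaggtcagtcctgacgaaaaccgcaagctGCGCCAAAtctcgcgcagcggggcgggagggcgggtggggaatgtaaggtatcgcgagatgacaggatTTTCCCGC
UHRF1, the first of 3 listed starts, chr19:4909251-4909500, plus strand: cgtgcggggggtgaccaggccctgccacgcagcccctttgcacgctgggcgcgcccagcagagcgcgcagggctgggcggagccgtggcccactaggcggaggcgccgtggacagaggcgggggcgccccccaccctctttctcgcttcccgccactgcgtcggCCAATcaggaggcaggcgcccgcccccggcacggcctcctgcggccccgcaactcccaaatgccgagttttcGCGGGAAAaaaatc
DNMT3B, chr20:32779602-32779851, plus strand: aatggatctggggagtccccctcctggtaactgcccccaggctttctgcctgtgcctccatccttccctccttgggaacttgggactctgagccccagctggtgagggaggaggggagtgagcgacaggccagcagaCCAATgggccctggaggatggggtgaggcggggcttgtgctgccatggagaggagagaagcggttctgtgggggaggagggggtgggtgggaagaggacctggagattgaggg
TET2, the first of 2 listed starts, chr4:105145625-105145874, plus strand: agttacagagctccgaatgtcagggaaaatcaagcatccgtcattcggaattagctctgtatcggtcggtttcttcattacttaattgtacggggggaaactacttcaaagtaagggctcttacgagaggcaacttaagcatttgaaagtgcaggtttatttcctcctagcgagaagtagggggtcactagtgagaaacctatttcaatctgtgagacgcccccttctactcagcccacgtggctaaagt

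An E2F match lay in the HELLS promoter at 2 places, 76 and 8 bases before the start, and in the UHRF1 promoter shown at 1, 14 bases before it. A second UHRF1 start, not shown, held another at 160 bases. Counting every listed start of the 8 members (19 in all), HELLS and UHRF1 were the 2 members with a match. Both held a match at their first start. Among the first starts of the 10620 tested genes found in the promoter table, 4.39% held one. CCAAT was present in 3 of 8 first-start promoters (DNMT3B, UHRF1 and HELLS), near the background of 34.8% of those 10620. Over every listed start 5 members held it, with TET1 and TET3 added. The letters CCCTCCC on either strand, which resemble a CT element of the kind HNRNPK is known to bind, were in 4 of 8 first-start promoters (DNMT1, HELLS, TET1 and TET3), against 30.3%. Over every listed start 6 members held them, with DNMT3A and UHRF1 added. The share of tested genes with a match at any listed start was not computed, so counts over every start have no background here. The DNMT3B and UHRF1 windows lie before starts that are 17.5 and 6.4 kb inside the annotated gene, not at its outermost 5′ end. CpG pairs in the DNMT3B window numbered 3 in 250 bases. HELLS had 18, the UHRF1 window had 28 and the TET2 window 10, where the median of the tested genes was 21.0. The window before the other listed TET2 start, 1.0 kb inside the gene, had 34. A match is a description of these letters only.

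The knockdown comparison asked how each gene's transcript differed between HNRNPK siRNA and siNTC5. HELLS, DNMT3B and UHRF1 fell, TET2 and TET3 rose, DNMT3A passed the test with a small rise and overlapping groups, and DNMT1 and TET1 did not pass. Thus 6 of 8 members passed, 3 higher and 3 lower, at an adjusted p under 0.05 in edgeR, in a model with library kit. Across all 13933 genes tested 71.5% passed, so the count of members is near the background. The groups did not overlap for 5 of 8 members, 3 of them lower, against 56.5% of all genes and 28.0% in the lower direction. No member both passed and reached an absolute log2 fold change of 1, which 15.8% of all genes did, and HELLS came nearest. The median log2 fold change was -0.11 over the members and -0.0042 over all tested genes. The direction of HELLS and UHRF1 and the call of DNMT3B held against siNTC5 and not against Scramble, as described further on. In RNA from whole cultures, fewer cells of a kind and less RNA per cell cannot be told apart. CPM in this comparison are scaled by TMM over the 8 libraries, and groups are given in the order of replicates 1 to 4.

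Among the methyltransferases, the maintenance enzyme DNMT1 (chromosome 19, 10133346 to 10194953) stood at 280, 307, 270 and 292 CPM in siNTC5. With HNRNPK siRNA it stood at 285, 272, 289 and 288 CPM, all within the control range. By log2 fold change it stood at -0.02, with a standard error of 0.05 and an edgeR adjusted p of 0.703, smaller in size than that of 96.8% of tested genes. The sign of this value depends on the scaling, and is positive (0.01) under upper-quartile normalisation.

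DNMT3B (chromosome 20, 32762385 to 32809356), a de novo methyltransferase with high activity in early embryos and many tumours, had 70.02, 77.9, 65.7 and 67.4 CPM in controls. In the knockdown these were 49.4, 43.3, 43.3 and 47.3 CPM. Every knockdown library lay below every siNTC5 library. The transcript was at 65.3% of control (log2 fold change -0.62, standard error 0.06, edgeR adjusted p 5.79e-08). DNMT3A (chromosome 2, 25227874 to 25342590), the other de novo methyltransferase, was measured at 37.1, 38.6, 48.8 and 50.5 CPM in siNTC5 and at 45.7, 46.6, 50.6 and 51.1 CPM in the knockdown. Its control libraries split by kit, the TruSeq pair low and the Ligation pair inside the knockdown range. Both kits together gave a log2 fold change of 0.16, with a standard error of 0.06 and an edgeR adjusted p of 0.031. Within the TruSeq libraries it was 0.29, and within the Ligation libraries 0.02 (adjusted p 0.787). Leaving out siNTC5 replicate 1, siNTC5 replicate 2, HNRNPK siRNA replicate 1 or HNRNPK siRNA replicate 2, the 4 TruSeq libraries, each ended the call, with edgeR adjusted p from 0.0772 to 0.127.

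Of the maintenance cofactors, HELLS (chromosome 10, 94545788 to 94613905) changed most among the 8 genes. Its controls were at 82.7, 97.9, 71.6 and 72.6 CPM, and its knockdown libraries at 44.1, 44.5, 39.5 and 34.9 CPM. The highest knockdown library was well below the lowest control. HELLS was at 50.2% of control, or -0.995 on the log2 scale, with a standard error of 0.06 and an edgeR adjusted p of 1.06e-10, and 15.9% of tested genes had a larger absolute change. UHRF1 (chromosome 19, 4903080 to 4962154) stood at 112, 102, 103 and 99.4 CPM in siNTC5 and at 69.7, 68.9, 87.3 and 84.0 CPM in the knockdown. The groups did not overlap, and the TruSeq knockdown libraries were lower than the Ligation ones. UHRF1 was at 73.9% of control (log2 fold change -0.44, standard error 0.07, edgeR adjusted p 9.78e-06), and 47.3% of genes had a larger absolute change. In RefSeq UHRF1 overlaps ARRDC5 and a miRNA gene, and the strand setting of the counting was not stated.

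Of the TET enzymes, TET2 and TET3 rose and TET1 did not pass the test. TET2 (chromosome 4, 105145875 to 105279803), which lacks the CpG-binding CXXC domain, was at 36.8, 38.4, 33.6 and 34.2 CPM in controls. Its knockdown values of 51.2, 48.1, 43.5 and 46.2 CPM were all above them. TET2 rose to 132% of control (log2 fold change 0.40, standard error 0.06, edgeR adjusted p 7.57e-06). TET3 (chromosome 2, 73983631 to 74135498) had 100, 101, 82.9 and 85.8 CPM in siNTC5 and 113, 118, 109 and 117 CPM in the knockdown. Here too the groups were apart, with the TruSeq controls nearest to the knockdown. The rise was to 124% of control (log2 fold change 0.31, standard error 0.05, edgeR adjusted p 4.27e-05). In RefSeq TET2 overlaps TET2-AS1, and TET3 overlaps BOLA3, so reads of these neighbours could be shared.

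TET1 (chromosome 10, 68560337 to 68694487), which carries a CXXC domain, had the lowest counts. Controls were at 12.1, 10.98, 10.4 and 12.2 CPM and knockdown libraries at 9.03, 11.5, 10.0 and 9.15 CPM. The ranges overlapped through HNRNPK siRNA replicate 2. The difference on the log2 scale, -0.20 with standard error 0.11, did not pass (edgeR adjusted p 0.105). Without HNRNPK siRNA replicate 2 it was -0.29 with an edgeR adjusted p of 0.0342, the lowest over its 20 alternatives, whose highest was 0.98.

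**Figure D1:**
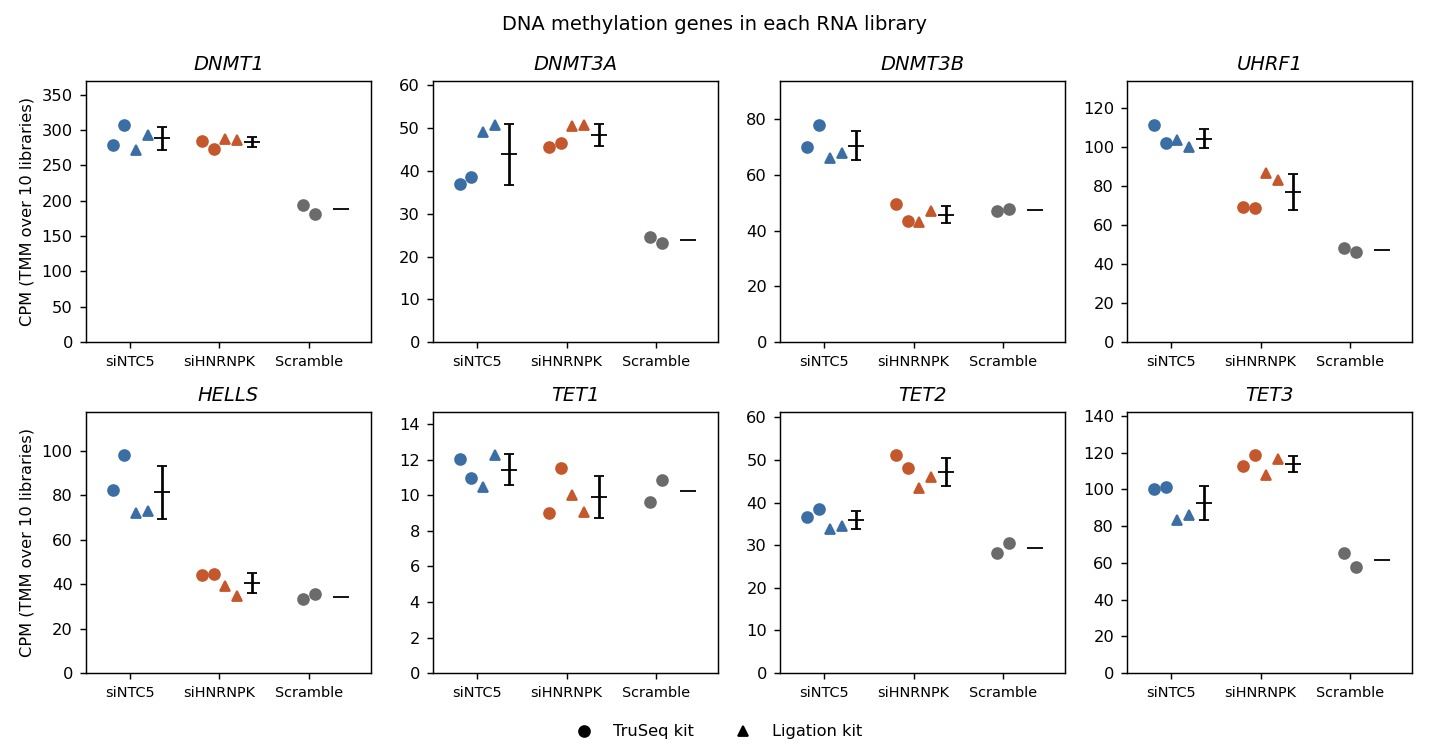
CPM (vertical axes, from 0, scaled by TMM over all 10 libraries) of the 8 genes in siNTC5, HNRNPK siRNA and Scramble libraries; circles are TruSeq and triangles Ligation libraries, with the mean beside each group and the SD where n = 4. HELLS, DNMT3B and UHRF1 are lower and TET2 and TET3 higher with HNRNPK siRNA than with siNTC5, and both Scramble libraries lie below every siNTC5 library for each gene but TET1.

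Ratios of 2 members within a library do not depend on library scaling, and the lengths of the genes cancel between groups. The 6 pairs were compared by two-sided exact permutation tests over the 8 libraries, where the smallest possible p is 0.0286. The ratio of DNMT3A to DNMT3B was 0.529, 0.495, 0.743 and 0.749 in siNTC5 and 0.925, 1.08, 1.17 and 1.08 in the knockdown, a rise of 0.78 on the log2 scale without overlap. The ratio of DNMT1 to HELLS rose from between 3.14 and 4.02 to between 6.12 and 8.24. DNMT1 to UHRF1 went from between 2.497 and 3.002 to between 3.31 and 4.09. TET1 to TET3 moved from 0.109 to 0.142 down to 0.0781 to 0.0972, and DNMT1 to TET3 from 2.79 to 3.40 down to 2.30 to 2.66. Each of these 5 ratios separated the groups completely (exact permutation p = 0.0286, 0.0343 after Benjamini-Hochberg adjustment over 6 pairs). With labels exchanged within kit only, added after the data were seen, 36 arrangements remain and the smallest possible exact p is 0.0556, so no pair could pass; these 5 reached it. TET2 to TET3 overlapped, with a log2 difference of 0.09 (exact permutation p = 0.171, adjusted 0.171). In Scramble the DNMT1 to UHRF1 ratio was 4.01 and 3.90, inside the knockdown range. DNMT1 to HELLS was 5.86 and 5.08, above every siNTC5 library and below every knockdown library. Nontargeting libraries thus also held values of these ratios above the siNTC5 range. For DNMT3A to DNMT3B the Scramble values of 0.52 and 0.488 lay by the TruSeq siNTC5 libraries and below the knockdown. TET1 to TET3 in Scramble was 0.147 and 0.188, and DNMT1 to TET3 was 2.98 and 3.13, all outside the knockdown range.

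**Figure D2:**
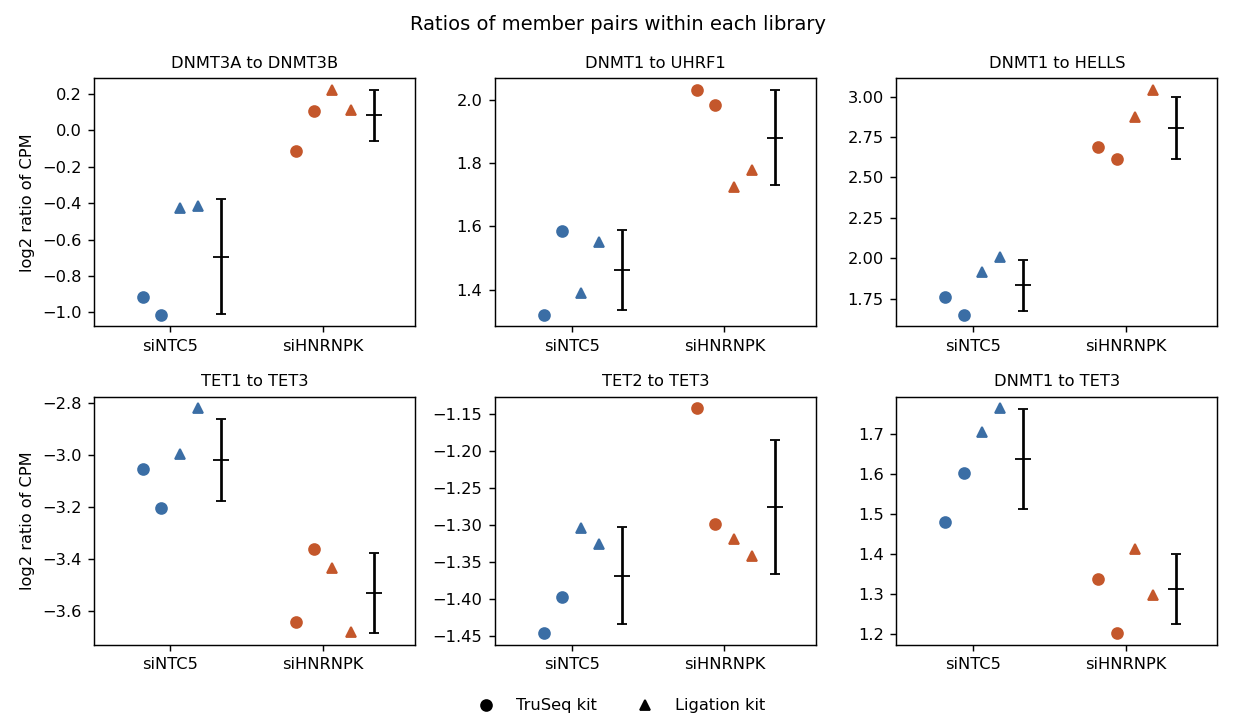
Log2 ratio of CPM for 6 pairs of members (vertical axes) in siNTC5 and HNRNPK siRNA libraries; circles are TruSeq and triangles Ligation libraries, and bars are mean and SD (n = 4). The groups are apart for 5 pairs, and for TET2 to TET3 they overlap.

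A test of the interaction with kit asked whether a gene's response differed between TruSeq and Ligation libraries. No member passed at an adjusted p under 0.05 in edgeR, where 0.129% of all genes did (18 genes; 65 with DESeq2). At an unadjusted p under 0.05, 3 members passed, UHRF1, DNMT3A and TET3, against 11.8% of all genes. For UHRF1 the log2 change was -0.63 in TruSeq and -0.24 in Ligation libraries, an interaction of 0.39 ± 0.09 (SE, edgeR adjusted p 0.1). Its edgeR adjusted p was 0.00215 without siNTC5 replicate 2, when the TruSeq control arm holds 1 library assumed to vary like the others, and 0.0332 with no filter on low counts. Over its 11 alternatives the adjusted p ran up to 0.529. Both kits showed lower UHRF1 in the knockdown.

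The Scramble libraries gave the spread between sets of nontargeting controls. Both are TruSeq, so with kit in the model the log2 differences rest on 2 Scramble against 2 TruSeq siNTC5 libraries. The Ligation controls add only to scaling and to the estimate of spread. The log2 difference of Scramble from siNTC5 was negative for all 8 members, and 7 passed (edgeR, 6 libraries, kit in the model), where 33.5% of 14263 genes passed in the lower direction and 68.6% in either. For the same 7 members both Scramble libraries lay below every siNTC5 library, against 31.8% of genes; TET1 overlapped. In CPM scaled over 10 libraries, HELLS was at 33.2 and 35.6 in Scramble, against 81.4 ± 12.03 (SD, n = 4) in siNTC5 and 40.6 ± 4.61 (SD, n = 4) with HNRNPK siRNA. UHRF1 stood at 48.6 and 46.3 CPM in Scramble, below every HNRNPK siRNA library. The log2 differences from siNTC5 were -1.44 ± 0.08 for HELLS and -1.22 ± 0.07 for UHRF1 (SE, edgeR adjusted p 1.17e-08 and 5.84e-09). With the TruSeq siNTC5 libraries alone HELLS was at -1.42 and UHRF1 at -1.20. In the main fit the other log2 differences were as follows. They were -0.76 for TET3, -0.71 for DNMT3A, -0.69 for DNMT1 and DNMT3B and -0.41 for TET2, with edgeR adjusted p from 8.43e-07 to 0.000638. TET1 differed by -0.21 ± 0.13 (SE, adjusted p 0.151).

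The order of the 3 groups therefore depended on the gene. HELLS and DNMT3B were highest in siNTC5, with the HNRNPK siRNA and Scramble ranges overlapping each other. For UHRF1 the order was siNTC5, HNRNPK siRNA, Scramble with no overlap. TET2 and TET3 were highest with HNRNPK siRNA and lowest in Scramble, also without overlap. DNMT1 and DNMT3A were lowest in Scramble while siNTC5 and HNRNPK siRNA overlapped, and for TET1 all 3 ranges overlapped.

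With Scramble in place of siNTC5 as the control, an alternative chosen after the data were seen, HELLS and UHRF1 changed direction. Their log2 fold changes became 0.37 and 0.55 (edgeR adjusted p 0.000105 and 5.56e-09), and DNMT3B went to -0.02 (adjusted p 0.792). DNMT1 became 0.57 (adjusted p 6.52e-12). DNMT3A, TET3 and TET2 were higher in the knockdown against both control sets, at 0.96 (adjusted p 4.6e-13), 0.91 and 0.77 against Scramble. For DNMT3A that is far above its 0.16 against siNTC5. With kit in the model, these values against Scramble rest on the 2 TruSeq knockdown libraries and the 2 Scramble libraries. With all 6 controls together HELLS was at -0.68 and UHRF1 at -0.19, and neither passed (edgeR adjusted p 0.0975 and 0.555). The knockdown and Scramble comparisons share the siNTC5 libraries. In Scramble the siRNA, RNA purification, depth and count table cannot be told apart. The count tables also differ in what they count: 312 shared names had at most 8 counts over the 8 libraries and at least 500 over both Scramble libraries.

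**Figure D3:**
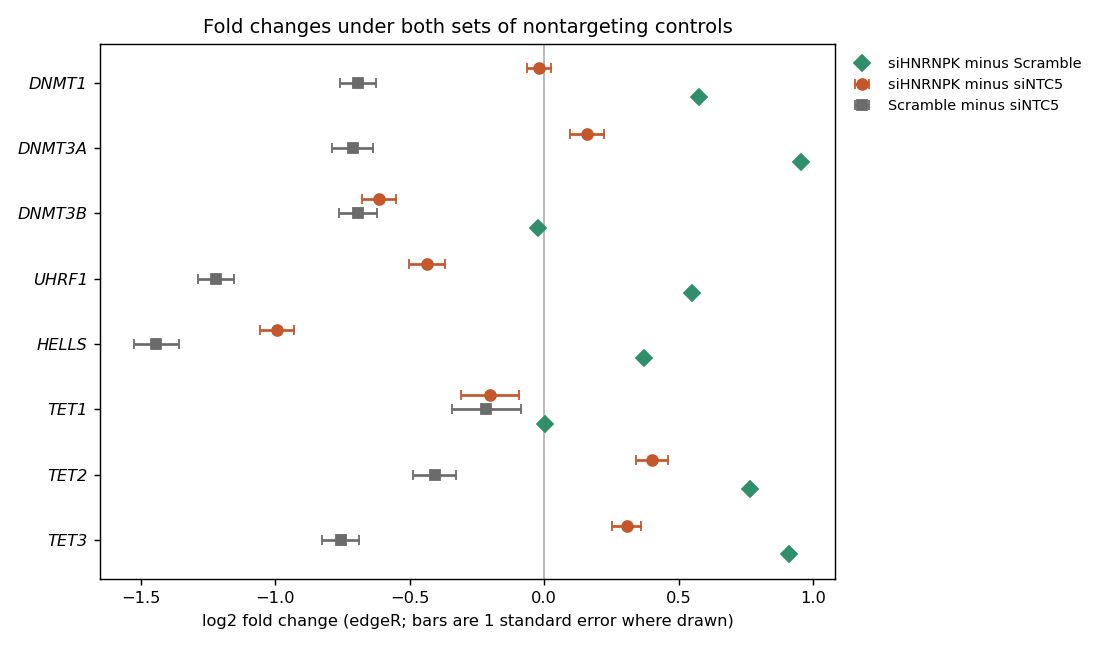
Log2 fold change (horizontal axis) of the 8 genes for HNRNPK siRNA minus siNTC5 (circles), Scramble minus siNTC5 (squares) and HNRNPK siRNA minus Scramble (diamonds, drawn without error bars); bars are 1 standard error from edgeR. DNMT3A, TET2 and TET3 are above 0 against both control sets, whereas HELLS and UHRF1 are below 0 against siNTC5 and above 0 against Scramble.

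DNMT1, UHRF1 and HELLS are known to be made most in dividing cells, so replication genes were read beside them. Of 34 tested S phase and replication genes, 22 fell and 6 rose with HNRNPK siRNA, with a median log2 fold change of -0.33, against 36.1% of all genes lower and 35.5% higher. Those that rose were MCM3, MCM10, CDC6, ORC6, CCNE1 and RFC4, named after their values were seen, with log2 fold changes from 0.16 to 0.51. MCM5, a subunit of the replicative helicase, went from 218 to 90.8 CPM (log2 fold change -1.26, adjusted p 1.85e-13 in edgeR). POLA2, a subunit of DNA polymerase alpha, went from 36.5 to 17.6 CPM (log2 fold change -1.05). In Scramble against siNTC5, 32 of 35 of these genes were lower and 1 higher, with a median of -1.22, against 33.5% of genes lower. Most of the list was therefore lower than in siNTC5, as HELLS and UHRF1 were, in both comparisons, while DNMT1 was at -0.02 with HNRNPK siRNA. The 2 comparisons share the siNTC5 libraries, so they are not independent. With Scramble in place of siNTC5, HELLS and UHRF1 were higher in the knockdown, at 0.37 and 0.55. Values of the replication list against Scramble are not given here. The part of replication in these values was not tested.

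Among relatives and partners of DNMT1, DNMT3 enzymes and UHRF1, 13 of 18 tested genes passed, 8 higher and 5 lower, with a median of 0.07, a share of 72.2% against 71.5% of all genes. None reached an absolute log2 fold change of 1. The largest change was in NSD2, which methylates H3K36, a mark read by the DNMT3 enzymes. It stood at 366, 380, 355 and 352 CPM in controls and 219, 197, 207 and 218 CPM in the knockdown (log2 fold change -0.79, standard error 0.05, edgeR adjusted p 2.25e-11). CDCA7, the partner that carries HELLS to nucleosomes, is named after its values were seen. Its log2 fold change was -0.61 (adjusted p 8.94e-09 in edgeR). It was also lower in Scramble than in siNTC5, by -1.04 (edgeR adjusted p 1.02e-07), a larger difference than in the knockdown. UHRF2, the paralog of UHRF1 and likewise named, went from 46.0 to 60.6 CPM, opposite to UHRF1, at a log2 fold change of 0.40 (adjusted p 2.3e-05). Its Scramble libraries differed from siNTC5 by -0.19 (edgeR adjusted p 0.0589).

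Of 9 tested methyl-CpG readers, 7 passed, 4 higher and 3 lower, or 77.8% against 71.5% of all genes. MBD3, a subunit of the NuRD complex, had the largest change, with 47.5, 25.9, 65.4 and 54.7 CPM in controls and 18.8, 18.9, 36.8 and 31.9 CPM in the knockdown. Its groups overlapped through siNTC5 replicate 2 (log2 fold change -0.87, standard error 0.13, edgeR adjusted p 9.61e-06).

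Partners of demethylation and base excision repair changed often, with 18 of 20 passing, 10 higher and 8 lower, against 71.5% of all genes. APOBEC3B, a cytosine deaminase, rose from 7.47, 7.27, 6.60 and 5.04 CPM to 32.8, 32.5, 30.5 and 29.5 CPM. That is 2.25 on the log2 scale, with a standard error of 0.09 and an edgeR adjusted p of 3.66e-13, and its Scramble libraries differed from siNTC5 by 0.07 (adjusted p 0.668). SALL4, a zinc finger protein known to bind oxidised methylcytosine, rose from 4.90 to 14.6 CPM (log2 fold change 1.57), and its Scramble libraries were lower than siNTC5 by -2.04. GADD45B, a stress-induced adaptor linked to demethylation, rose from 13.7 to 34.7 CPM (1.36), and it was also higher in Scramble by 1.80. CXXC4, a binding partner of TET2, rose from 1.498 to 3.17 CPM (1.08). NEIL3, a DNA glycosylase, fell from 26.2 to 11.1 CPM (log2 fold change -1.25) and was lower in Scramble as well, by -1.003.

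Methyl donor and alpha-ketoglutarate supply leaned downward. Of 17 tested genes, 11 fell, 3 rose and 3 did not pass, with a median log2 fold change of -0.45, against 36.1% of all genes lower. In Scramble against siNTC5 the list did not lean downward. There 9 of 18 tested genes were higher and 6 lower, with a median of 0.09, against 35.1% and 33.5% of all genes. D2HGDH, which turns D-hydroxyglutarate, a TET inhibitor at high levels, into alpha-ketoglutarate, fell from 19.1 to 9.01 CPM (log2 fold change -1.06, edgeR adjusted p 1.75e-07) and was lower in Scramble by -1.05. MTRR, which reactivates methionine synthase, rose from 50.8 to 103 CPM (log2 fold change 1.03).

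Few genes commonly silenced by promoter methylation had enough counts to test. Of 30 germline genes, 6 were tested and 12 had no count in any of the 8 libraries; 2 of the 6 rose and 1 fell, where 71.5% of all genes passed. RBM46 rose from 1.78 to 6.31 CPM (log2 fold change 1.86, standard error 0.21, edgeR adjusted p 1.99e-07) and PIWIL2 from 0.757 to 2.29 CPM (1.64). In Scramble against siNTC5, 2 of 7 tested germline genes were higher and 3 lower, against 35.1% and 33.5% of all genes. The 2 were MAGEA6, by 11.9 on the log2 scale, and MAGEA3, by 3.33. MAGEA6 had at most 4 counts in any of the 8 libraries. Whether low counts on these lists reflect silencing or the counting was not tested. Of 24 genes often methylated in colorectal cancer, 11 were tested, 2 rose and 5 fell, or 63.6% called against the same 71.5%. MGMT, a DNA repair enzyme, fell from 9.38 to 2.36 CPM (log2 fold change -1.99). VIM and IGFBP3 fell from 2.82 to 0.883 and from 3.05 to 0.939 CPM (log2 fold changes -1.67 and -1.72). They had only 46 and 48 counts over the 4 knockdown libraries. In Scramble, MGMT, VIM and IGFBP3 were higher than in siNTC5, by 0.69, 0.60 and 1.12. CDO1 rose from 8 counts over the 4 control libraries to 54 over the 4 knockdown libraries. DNA methylation itself was not measured in the files used here.

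**Figure D4:**
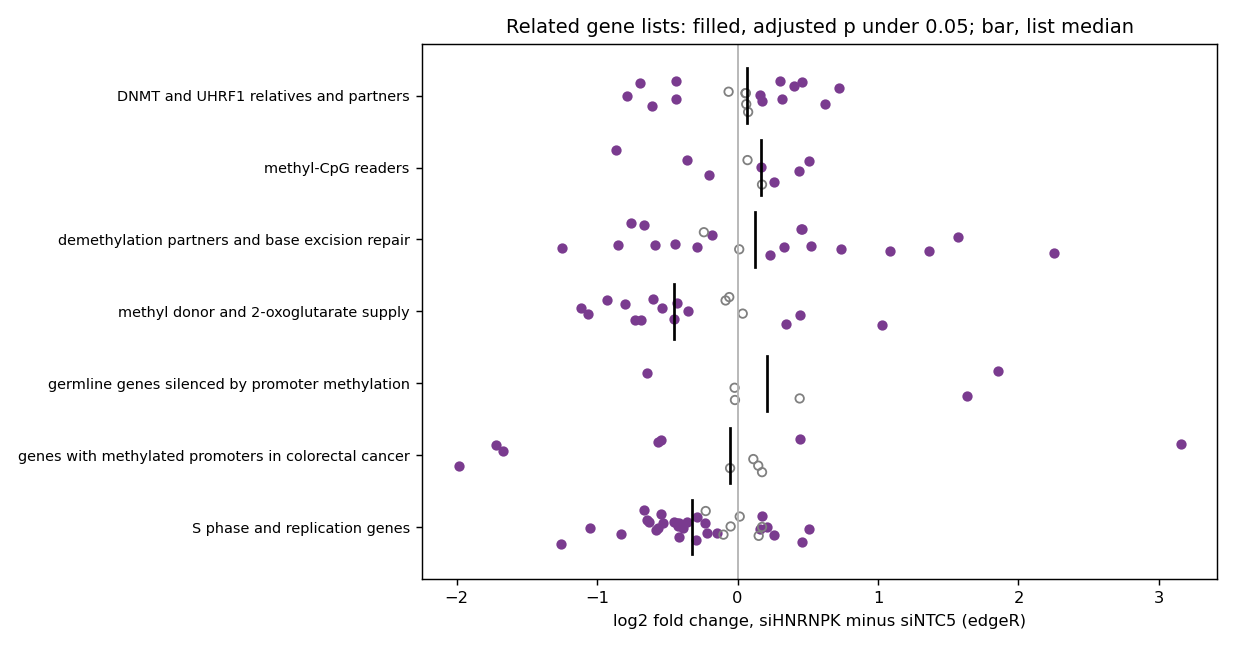
Log2 fold change of HNRNPK siRNA minus siNTC5 (horizontal axis) for each tested gene of 7 related lists; filled points passed at an adjusted p under 0.05 in edgeR, open points did not, and the bar is the list's median. Methyl donor and S phase genes have medians of -0.45 and -0.33, and the other lists have medians from -0.05 to 0.21.

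The genes whose log2 CPM followed a member most closely over the 8 libraries were taken for the member that fell most and the one that rose most. For HELLS they were SHPK, CSE1L and PRKAR2A, with Pearson's r from 0.997 to 0.999. For TET2 they were IST1, MRPL10 and ATXN1L, with r from 0.993 to 0.997. Likeness of this order was common, since 694 genes reached r above 0.95 with HELLS and 576 with TET2. These libraries share treatment and kit, so r is a description.

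The domain lists asked where the 8 genes lie relative to lamina-associated and marked chromatin. No member had 50% or more of its body in any of the 7 deposited domain lists. Among 12283 tested protein-coding genes with a position, such a share was found for 2.90% in control lamin B1 domains, 9.48% in control H3K27me3 domains and 2.69% in control H3K9me3 domains. With 8 genes, 0 is thus close to the background. The lists hold no replicates, so no difference between them was tested.

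One member touched a domain. In HNRNPK siRNA cells an H3K9me3 domain on chromosome 4, from 105265001 to 105340000 (75 kb), covered the last 14.8 kb of TET2, or 11.1% of its body. The same stretch had no control H3K9me3 base, and the nearest control domain was 775.9 kb away. Its deposited score, the authors' value per domain, was 0.717, near the median of 0.709 in that list, and it also holds TET2-AS1. In that list of 1996 domains 55.7% shared no base with the control list, and 9.35% of tested protein-coding genes touched a knockdown H3K9me3 domain, against 4.11% for the control list. Within 2 Mb on each side of the TET2 start, H3K9me3 domains numbered 2 and covered 0.14 Mb in controls, and 7 covered 1.025 Mb in the knockdown. The knockdown list holds 1996 H3K9me3 domains and the control list 895, and around 92.5% of 10085 tested genes the H3K9me3 length in such a window was larger in the knockdown list. It was larger around all 8 members, from 1.28 to 1.37 Mb near DNMT1 and from 0 to 0.435 Mb near TET1.

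Lamin B1 domains within 500 kb of a member were listed for HELLS and UHRF1 only, and both differed between the lists. A control lamin B1 domain of 480 kb began 36.1 kb beyond HELLS, and in the knockdown the nearest one was 9190.8 kb away. An H3K27me3 domain over much the same stretch was listed in both, at 535 and 530 kb. Beside UHRF1, a lamin B1 domain of 130 kb lay 32.8 kb away in the knockdown, where the nearest control one was 4267.8 kb away. Both of these lamin B1 domains scored below the median of their list. The one beside HELLS had 0.551 against 0.777, and the one beside UHRF1 0.562 against 0.755. Both genes were lower with HNRNPK siRNA than with siNTC5, although their domains differed in opposite directions, and a link was not tested. For the other members no lamin B1 domain lay within 500 kb in either list. Within 2 Mb of the start, lamin B1 cover was also smaller in the knockdown list near 3 of them. It was 0.76 and 0.25 Mb near DNMT1, 0.27 and 0.12 Mb near DNMT3B, and 0.759 and 0.229 Mb near TET3. The control list holds 880 lamin B1 domains and the knockdown list 730, and the share of all genes with such differences was not computed.

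**Figure D5:**
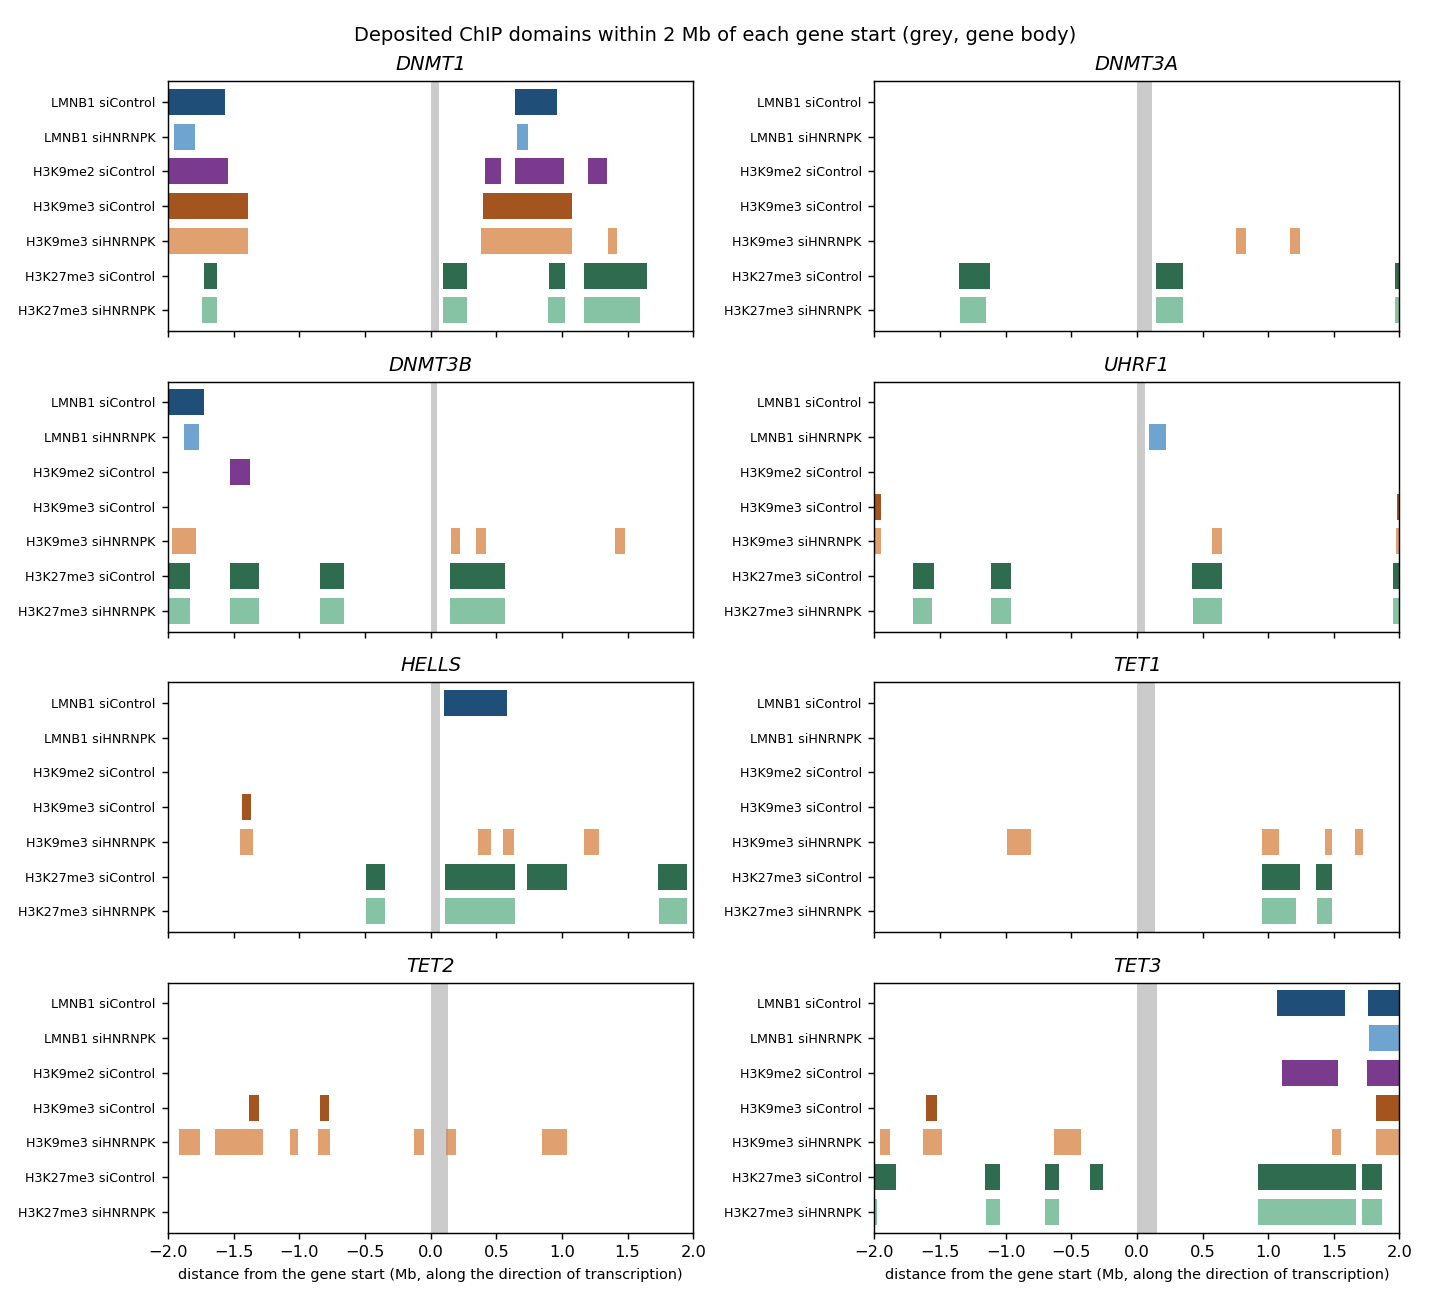
Deposited domains of the 7 lists (rows) within 2 Mb of the start of each gene (horizontal axis, distance in Mb along the direction of transcription); the grey band is the gene body. No band is covered except the far end of TET2, by an H3K9me3 domain of the HNRNPK siRNA list. A control lamin B1 domain beside HELLS, scored 0.551 against a list median of 0.777, has no counterpart in the knockdown list.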

How the data were processed

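RNA values are whole-number read counts for each gene symbol, as deposited by the authors. STAR 2.7.1a, featureCounts and Subread 2.0.6 are named in the submitters' processing notes for the 8 libraries with hg38; for the Scramble tables the notes name both hg19 and hg38, and which one was used is not given in the sources used here. The annotation and the strand setting are also not given. ChIP domains carry a deposited score of unstated scale; the notes name Bowtie2 2.5.1 and hg38, and the domain caller and the pooling of replicates are not given.

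After filterByExpr and TMM scaling, edgeR 4.0.16 (R 4.3.3) was used for the quasi-likelihood test, with kit and treatment as terms. The Benjamini-Hochberg adjustment ran over all tested genes. Scramble was compared on the 25527 names shared by the tables. Fold changes carry the SE implied by the F statistic. The fits were run on simulated counts with few changed genes, a constant dispersion and no kit effect. These data are less simple, so that run does not measure error rates here. DESeq2 1.42.0, other scalings and filters, each kit alone, other controls and each library left out were run as alternatives.

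Libraries sharing a replicate number deviated together (r across genes from 0.1 to 0.425), but replicate number is nested in kit. After kit and treatment were removed r was -0.281 to -0.156. Removing these terms from so few libraries itself pulls r below 0, so these values cannot show whether replicates were paired. Since pairing could not be settled, a replicate block in place of kit is given as an alternative. No 2 libraries held identical values.

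The named genes are the 8 members, HNRNPK, and those genes of related lists that passed and differed at least 1 on the log2 scale in either direction, or the largest called change where none did, and where more than 6 passed the 3 largest in each direction. For the member that fell most and the one that rose most, the 3 genes of highest correlation are also named. One gene that meets this rule is not reported here. Members and lists were chosen with earlier results of these data known. Gene positions are RefSeq on GRCh38.p14; levels were not compared between genes, since transcript lengths were not used.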

Additional observations from a re-analysis of the deposited data

How the results depend on the processing

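With siNTC5 alone as the control, 124 of 136 alternative values of the 8 members kept the direction and the side of the threshold, and with Scramble among or as the controls 11 of 24 did. HNRNPK kept both under its 20. The replicate block left 9872 calls over all genes, against 9968, and changed the call of no member. The cause of the other changes was not tested.

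DNMT1, never called against siNTC5, turned positive with upper-quartile normalisation (0.013), a mean count of at least 50 (0.0096), the Ligation libraries alone (0.028), Scramble added to the controls (0.14) and Scramble in place of siNTC5 (0.57; 0.56 with the TruSeq knockdown libraries alone). Leaving out libraries gave -0.055 to 0.016. DNMT3A lost its call with no filter (0.12), no kit term (0.15), Scramble added (0.36) and the Ligation libraries alone (0.024), and was 0.12 to 0.19 with libraries left out. With Scramble in place of siNTC5 it was 0.96. With Scramble added HELLS (-0.68) and UHRF1 (-0.19) lost theirs. With Scramble in place of siNTC5, HELLS (0.37), UHRF1 (0.55) and TET1 (0.0041) reversed and DNMT3B lost its call (-0.022). The TruSeq knockdown libraries alone against Scramble gave 0.36, 0.54 and -0.035 for HELLS, UHRF1 and DNMT3B. TET1 was -0.29 to -0.14 with libraries left out, and passed in 1 of these fits.

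The count of interaction calls, 18, was 65 with DESeq2, 239 with no filter and 6 to 598 with libraries left out. The TET2 interaction, near 0, was -0.0064 with DESeq2 size factors, -0.0066 in DESeq2, -0.0099 with no filter and -0.048 to 0.048 with libraries left out. For HELLS and TET1 it ran from -0.075 to 0.17 and from -0.24 to 0.11. The TET2 to TET3 ratio changed sign in the Ligation libraries alone (-0.016). All 104 alternative values of the members in Scramble against siNTC5 kept direction and call, and all 21 domain counts kept within their binomial interval. For 0 of 8 members that interval is wide, and keeping only the higher-scored domains could not raise a count of 0. The domain check therefore says little. TET1, at 111 counts in its shallowest library, was measured least precisely.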

Other observations

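The 8-library and Scramble tables disagree on some genes of the related lists. ZBTB4, a methyl-CpG reader, had at most 1 count in any of the 8 libraries and 4871 and 4196 in Scramble. SHMT1, an enzyme of folate metabolism, had at most 1 against 2021 and 1691, and E2F2 had at most 1 against 557 and 397. The 3 were picked with their values in view. In the other direction, 11 shared names had at least 500 counts over the 8 libraries and at most 8 over both Scramble libraries. None of the 8 members had a count this low in either table.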
